A study of Mus musculus with 4 samples.

Results

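Interferon signalling and class I antigen presentation were examined in newborn skin without loricrin, the most abundant protein of the cornified envelope of the outer epidermis. The members are a list of 42 genes, and a member counted as measured where a probe set named it alone in the platform annotation. Of the 42, 41 were measured, among 13674 genes in all, and Irf2 was not matched to such a probe set. The first array type measured 38 members of 8251 genes and the second 9 of 7542, with 6 members on both. Where several probe sets of a type named the same gene, the one with the highest mean signal was read.

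The groups were loricrin knockout and wildtype mice, both of strain FVB/N and both sampled as whole skin on the day of birth (P0). Each group had 2 arrays, 1 on each of 2 Affymetrix array types with different probe content. Each type thus held 1 array per genotype and gave no replicate error. The labels do not say how the knockout allele was made, how many animals gave RNA, or whether RNA of other animals went on the replicate arrays. Whole skin holds epidermis, dermis, vessels, blood and resident immune cells, and in such a bulk sample fewer cells of a type cannot be told apart from less RNA per cell.

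Interferons are secreted alarm proteins. Type I interferons bind the receptor pair Ifnar1 and Ifnar2, and interferon gamma binds Ifngr1 and Ifngr2. Kinases of the Jak family on the receptors then phosphorylate STAT proteins. Stat2 and Irf9 belong to the complex ISGF3, which binds the interferon-stimulated response element (ISRE) in front of antiviral genes, while the response to interferon gamma runs through gamma-activated sites (GAS). The targets include antiviral effectors, immunity GTPases and the genes that load peptides on class I major histocompatibility molecules, through which nearly every nucleated cell, keratinocytes among them, shows peptides to T cells.

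The ISRE is the sequence that many of the members share. Its core was searched as GAAA, any 2 bases and GAAA again, on either strand, from 250 bases before to 50 bases after the most upstream annotated start, in RefSeq promoters of mouse build GRCm38.p6. Of the 38 members with a listed promoter, 17 held a match, 44.7%, against 944 of 27025 genes or 3.49%. The GAS core TTCNNNGAA, which can overlap an ISRE match, was held by 10 of the 38, 26.3%, against 8.42% of all genes. The stretches below lie before the start and are given 5′ to 3′ on the gene's strand, with ISRE matches in capitals. Stat2 and Bst2 are shown because they were the members past 2-fold. B2m is shown because its signal lay far above the floor in both arrays that measured it. Isg15, Ifitm2 and Ifit1 were chosen after their values were seen. Isg15 and Ifitm2 had the floored ratios closest below 2-fold, and Ifit1 is a classical target that lay below the floor.
Stat2, chr10:128270251-128270310, + strand: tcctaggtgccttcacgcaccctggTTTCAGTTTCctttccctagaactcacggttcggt
Bst2, chr8:71537562-71537627, - strand: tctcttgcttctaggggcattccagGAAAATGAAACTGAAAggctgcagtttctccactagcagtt
B2m, chr2:122147523-122147582, + strand: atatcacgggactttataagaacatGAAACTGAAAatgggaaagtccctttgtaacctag
Isg15, chr4:156200850-156200921, - strand: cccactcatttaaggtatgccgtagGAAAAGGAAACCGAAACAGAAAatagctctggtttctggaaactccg
Ifitm2, chr7:140955973-140956032, - strand: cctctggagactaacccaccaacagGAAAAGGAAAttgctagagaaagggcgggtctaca
Ifit1, chr19:34640760-34640838, + strand: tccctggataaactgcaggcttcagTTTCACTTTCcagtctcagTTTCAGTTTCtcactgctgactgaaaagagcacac
Overlapping matches run together in Bst2 and Isg15, while those of Ifit1 stand apart. A match describes the letters only. Of the genes shown, Stat2 was past 2-fold higher in knockout skin and Bst2 past 2-fold lower. B2m, Isg15 and Ifitm2 had negative log2 ratios that did not reach 2-fold, -0.32, -0.95 and -0.98, that of Isg15 a bound. Ifit1 lay below the floor in both genotypes.

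Values are deposited MAS5 signals in intensity units, scaled so that the arrays of a type had the same trimmed mean. Signals under a floor, 77.6 for the first array type and 133 for the other, were read as background and set to it before a ratio was taken. The log2 ratio is knockout over wildtype, and a ratio with 1 signal under the floor is a bound, written as "at least". With 1 array per genotype a rule of size was used, at least 2-fold, which is no test. Where no fold is given, "higher" and "lower" mean past that rule, and smaller differences stand with their values. On the first type 0.836% of all genes were higher and 1.38% lower by this rule. On the second type 1.67% were higher and 2.12% lower.

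The arrays were first checked for facts that touch every comparison. Loricrin read 2013 in the knockout array, against 41224 in the wildtype array, of the first type, and no second-type probe set was used for it. That probe set carries the suffix r of relaxed probe selection. Another first-type loricrin probe set read 12.4 in knockout skin against 27.3 in wildtype skin, both below the floor. Sex-linked transcripts showed a female pattern in the knockout arrays and a male one in the wildtype arrays. Xist read 857 in knockout skin against 24.7 in wildtype skin on the first type, and Kdm5d 12.2 in knockout skin against 976 in wildtype skin on its brighter probe set of the second. Genotype and sex therefore cannot be told apart in any value below. The 9 bacterial spike-in probe sets had mean log2 ratios of -0.69 and -0.65 on the first and second types, so directions are relative to the typical gene. Scaled on the spike-ins, 96.6% of the genes past 2-fold on the first type were higher in knockout in place of 37.7%, and 95.9% in place of 44.1% on the second.

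Members past 2-fold were counted beside the share of all genes. On the first type none of 38 measured members was past 2-fold, where 0.836% of all genes were higher and 1.38% lower. At this floor a gene whose brighter signal lies under 2 times the floor cannot pass the rule. That covered the 14 members below the floor in both arrays, and Adar, Eif2ak2, Ifitm1, Isg15, Ifnar1 and Ifnar2. On the second type 1 of 9 was higher, Stat2, and 1 was lower, Bst2. There 1.67% of all genes were higher and 2.12% lower, and Oasl2, Rsad2 and Tap1 could not pass. The 22 first-type members with a mean log2 signal above the floor had a median log2 ratio of -0.055, against 0.023 for the 5653 genes above it, with 8 positive and 14 negative ratios. The 7 such members of the second type had a median of 0.19, against 0.011 for 5137 genes. Under spike-in scaling the first-type members past 2-fold were 6 higher and none lower, Ifnar2, Irf3, Trim25, Tap1, Tapbp and H2-K1, where 13.5% of all genes were higher. The median log2 ratio of the members was then 0.63, against 0.70 for all genes. Of the 24 first-type members above the floor in at least 1 array, 15 had a negative ratio under the trimmed-mean scaling, and of these 12 turned positive under the spike-in scaling, while Ifitm1, Ifitm2 and Isg15 stayed negative. On the second type Bst2 and Eif2ak2, the 2 negative ones, stayed negative.

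**Figure D1:**
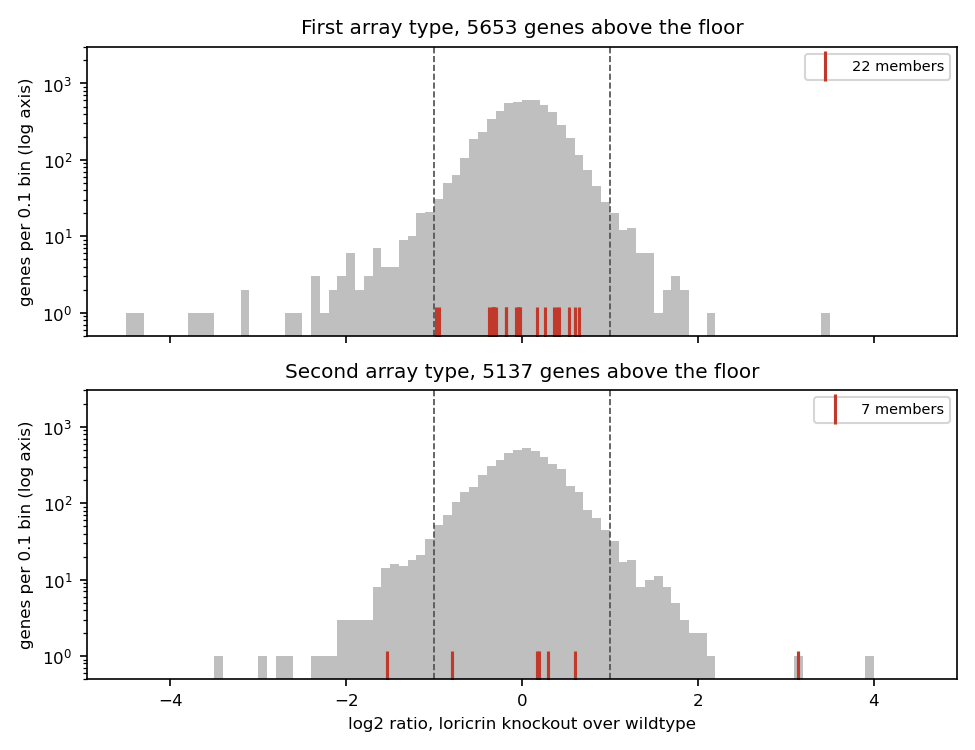
Log2 ratios of loricrin knockout over wildtype for all genes with a mean log2 signal above the floor, in bins of 0.1 on a log count axis, with the members as red ticks. Dashed lines mark 2-fold. The 22 members of the first array type lie inside the lines, and of the 7 of the second type Stat2 lies to the right and Bst2 to the left of them.

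Many of the classical interferon targets lay below the floor in both genotypes. In total 14 members lay below the floor in every array that measured them. They were Irf1, an interferon gamma target that itself activates transcription; the ISG15 protease Usp18; the antiviral effectors Ifit1, Ifit2, Ifit3, Mx1, Mx2 and Rsad2 (viperin); the immunity GTPases Gbp2, Gbp3, Ifi47, Igtp and Irgm1; and the peptide transporter subunit Tap2. Their first-type signals ran between 4.36 and 62.3 in knockout and between 3.21 and 76.8 in wildtype. Rsad2 was also measured on the second type, at 92.7 in knockout skin against 85.0 in wildtype skin, both below that floor. At this floor these genes have no fold, and their signals do not show that the RNA was absent. They were 14 of the 38 first-type members, while 27.6% of all first-type genes lay below the floor in both arrays. Of the 10 with a listed promoter 7 held an ISRE match, against 9 of the 27 members that passed the floor in at least 1 array.

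Receptors and their kinases were measured above the floor in both genotypes, and none passed 2-fold. Ifnar1 read 89.3 in knockout skin against 110 in wildtype skin. Ifnar2 read 154 in knockout skin against 98.2 in wildtype skin, a log2 ratio of 0.65, and its other probe set read 92.3 in knockout skin against 60.9, below the floor, in wildtype skin. The Ifnar pair thus had ratios of opposite sign, both under 2-fold, which neither could reach at this floor. Ifngr1 read 411 in knockout skin against 419 in wildtype skin. Ifngr2 read 194 in knockout skin against 197 in wildtype skin on the first type, and 8437 in knockout skin against 7479 in wildtype skin on the second, where its probe set carries the suffix r of relaxed probe selection. The interferon gamma receptor chains were within 1.13-fold between the genotypes on every probe set. Jak1, the kinase both receptor types share, read 1561 in knockout skin against 1632 in wildtype skin. Tyk2, the kinase bound to Ifnar1, read 257 in knockout skin against 292 in wildtype skin on the first type, and 504 in knockout skin against 442 in wildtype skin on the second. The log2 ratios of the 6 receptor and kinase genes on the first type ran from -0.30 to 0.65.

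Among the transcription factors Stat2 stood apart. Its brighter probe set on the second type read 1177 in knockout skin against 78.0 in wildtype skin, the wildtype signal below the floor, so Stat2 was at least 8.85-fold higher, a log2 ratio of 3.15 or more that is a bound set by the floor. A second Stat2 probe set on the same arrays read 333 in knockout skin against 175 in wildtype skin, both above the floor, a log2 ratio of 0.93 or 1.90-fold. Both probe sets had the larger signal in the knockout array, but their ratios differed by more than 2 on the log2 scale. The first carries the suffix r, which marks a set for which probe selection rules were relaxed, and the second carries no such suffix. Across the 1156 second-type genes with several probe sets above the floor, the log2 ratios of one gene spanned a median of 0.39, and 127 of them spanned more than 1. Without suffixed probe sets Stat2 was thus no longer past 2-fold. No first-type probe set was matched to Stat2, so it was measured on 1 pair of arrays.

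The other transcription factors above the floor did not pass 2-fold. Irf9, which with Stat2 forms the DNA-binding complex of type I interferon signalling, read 505 in knockout skin against 449 in wildtype skin, a log2 ratio of 0.17. Irf3, which is activated by viral nucleic acid sensing, read 543 in knockout skin against 420 in wildtype skin, a log2 ratio of 0.37, while its other probe set lay below the floor in both. Irf7, which amplifies type I interferon production, read 149 in knockout skin against 193 in wildtype skin, and its other probe set read 136 in knockout skin against 155 in wildtype skin. Both Irf7 probe sets had negative ratios of less than 2-fold. Socs1, a feedback inhibitor of Jak kinases, read 176 in knockout skin against 219 in wildtype skin, a log2 ratio of -0.32.

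The antiviral effectors included the members nearest to 2-fold on the first type. Bst2 (tetherin), which holds budding virus at the cell surface, was measured on the second type and read 72.7 in knockout, below the floor, and 385 in wildtype. It was at least 2.89-fold lower, with the log2 ratio of -1.53 a bound set by the floor. Its other probe set read 5.83 in knockout skin against 34.0 in wildtype skin, both below the floor, and gives no ratio. With the floor at the 60th percentile the Bst2 ratio was -0.30, since less of the wildtype signal then lay above it, and with the median over its probe sets -0.77.

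At this floor the ratios of Ifitm2 and Isg15 lay just short of 2-fold. Ifitm2, a membrane protein that blocks virus entry, read 80.5 in knockout, just above the floor, and 159 in wildtype, or 1.97-fold lower. Isg15, a ubiquitin-like protein, read 57.5 in knockout, below the floor, and 150 in wildtype, at least 1.93-fold lower. Ifitm1 read 38.8 in knockout, also below the floor, and 129 in wildtype, at least 1.66-fold lower. None of the 3 passed the 2-fold rule, and at this floor Isg15 and Ifitm1 could not. The ratios of Isg15 and Ifitm1 are bounds, so their differences may be larger than 2-fold, and both passed the rule at a lower floor, as given below. Ifitm3, of the same family as Ifitm1 and Ifitm2, had a positive ratio, with 1265 in knockout skin against 1055 in wildtype skin, a log2 ratio of 0.26. Ifi35 read 531 in knockout skin against 600.4 in wildtype skin. Oasl2, of the oligoadenylate synthetase family, read 202 in knockout skin against 132 in wildtype skin on the second type, the wildtype signal just under the floor.

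The floor decides how many members count as lower. With it at the 20th percentile, 20.1 on the first type, 5 members were at least 2-fold lower and none higher, where 5.60% of all first-type genes were lower and 3.16% higher. They were Irf1 (log2 ratio -1.87), Ifitm1 (-1.73), Rsad2 (-1.58), Gbp2 (-1.41) and Isg15 (-1.38), with Irf1 and Rsad2 at bounds because their knockout signals lay below that floor too. The same 5 were lower with no floor and a pseudocount of 1, where 8.57% of all genes were. The signals of these 5 genes in the knockout array lay between 10.4 and 57.5 and in the wildtype array between 60.05 and 150. Rsad2, the 1 gene of the 5 with a second-type probe set, did not differ by 2-fold there at any floor.

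**Figure D2:**
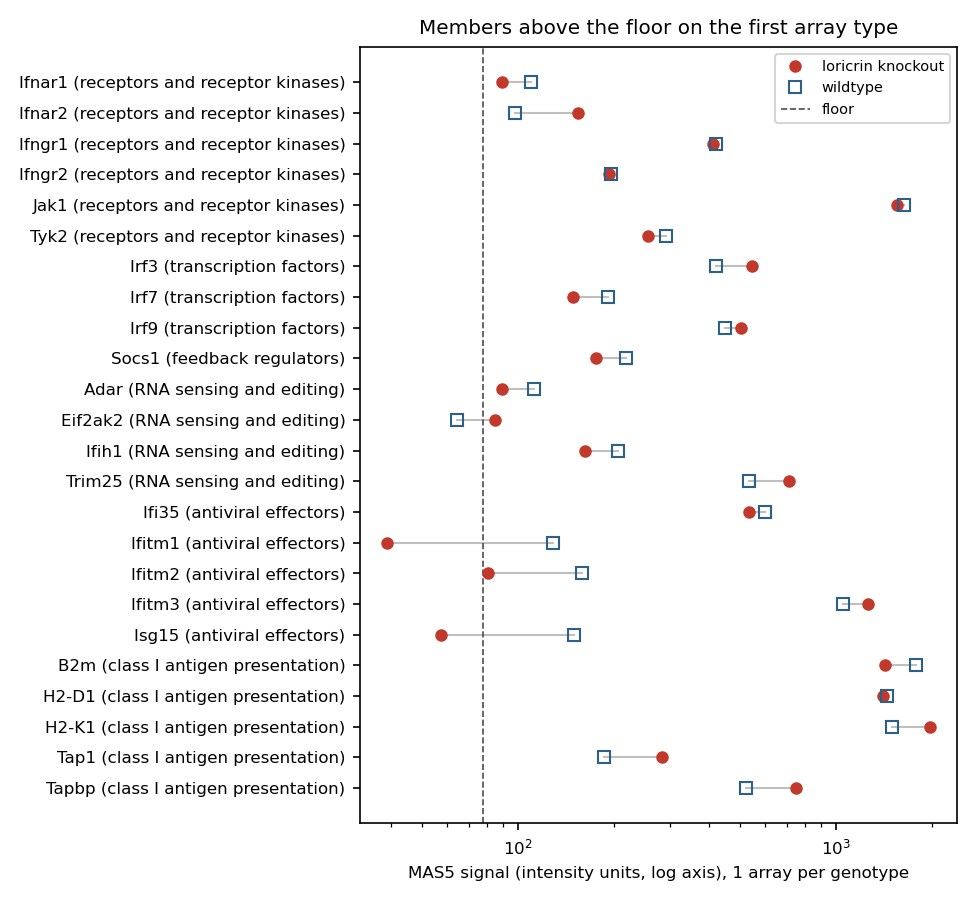
MAS5 signals on the first array type (log axis) of the 24 members above the floor in at least 1 array, by role, with the knockout array as filled circles and the wildtype array as open squares. The dashed line is the floor of 77.6, and Ifitm1 and Isg15 cross it with the knockout signal below.

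**Figure D3:**
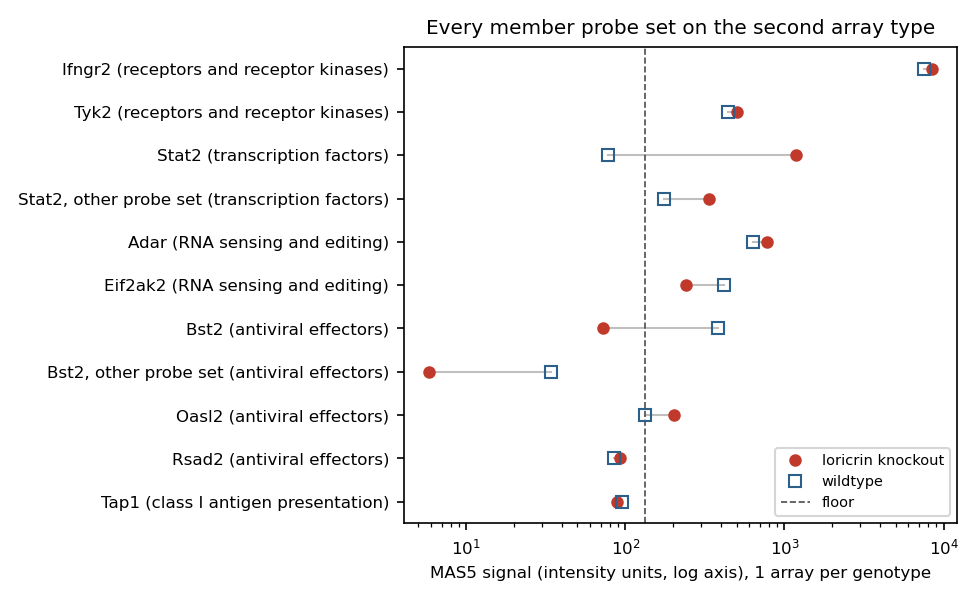
MAS5 signals on the second array type (log axis) of all probe sets of the 9 members measured there, with the knockout array as filled circles and the wildtype array as open squares. The dashed line is the floor of 133, and Stat2 (1177 in knockout, 78.0 in wildtype) and Bst2 (72.7 in knockout, 385 in wildtype) cross it in opposite directions.

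**Figure D4:**
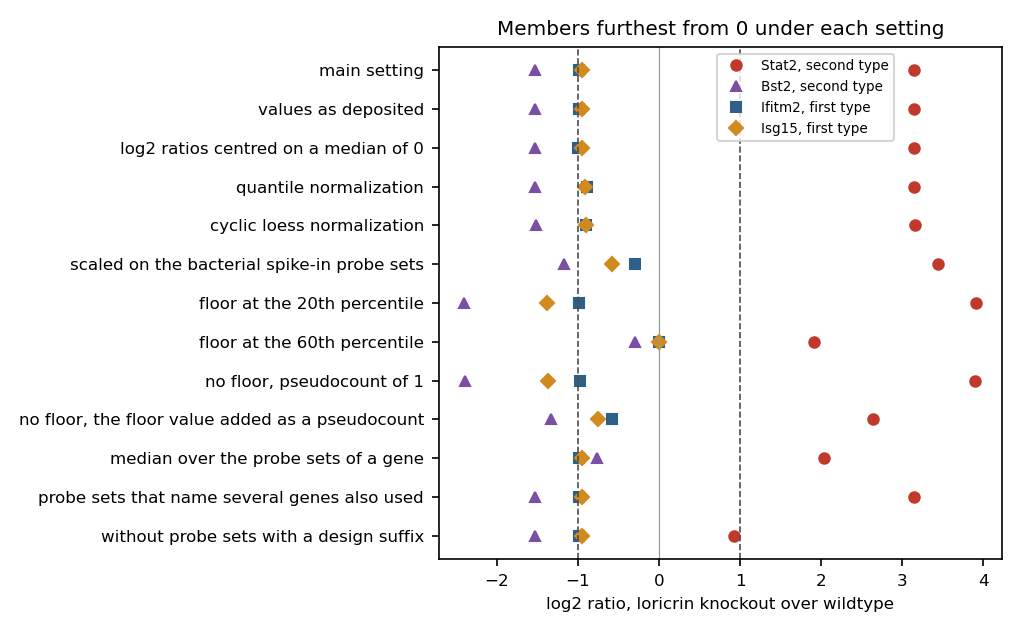
Log2 ratios of the members furthest from 0 under the main setting and the 12 alternatives, with dashed lines at 2-fold. Stat2 stays right of the line except without suffixed probe sets (0.93), and Bst2 stays left of it except at a 60th-percentile floor (-0.30) and with the median over probe sets (-0.77).

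Sensors and modifiers of RNA showed no difference of 2-fold. Ifih1 (MDA5), a sensor of long double-stranded RNA, read 163 in knockout skin against 206 in wildtype skin. Trim25, the ubiquitin ligase that assists the sensor RIG-I, read 714 in knockout skin against 531 in wildtype skin, a log2 ratio of 0.43. These lay on either side of 0. Adar, which edits adenosine in double-stranded RNA, read 89.3 in knockout skin against 112 in wildtype skin on the first type, where its other probe set lay below the floor in both, and 776 in knockout skin against 631 in wildtype skin on the second. Eif2ak2 (PKR), a kinase that halts translation on double-stranded RNA, read 84.5 in knockout skin against 64.2, below the floor, in wildtype skin on the first type, and 240 in knockout skin against 417 in wildtype skin on the second. Adar and Eif2ak2 each pointed in opposite directions on the array types, and on the first type neither could reach 2-fold at this floor.

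On the first type the class I presentation genes lay above the floor in both genotypes, apart from Tap2. B2m, the light chain of class I molecules, read 1424 in knockout skin against 1783 in wildtype skin, a log2 ratio of -0.32. The heavy chain H2-K1 read 1975 in knockout skin against 1501 in wildtype skin, a log2 ratio of 0.40, and its 3 probe sets had ratios from -0.52 to 0.82. The heavy chain H2-D1 read 1406 in knockout skin against 1452 in wildtype skin, and its 3 probe sets had ratios from -0.05 to 0.41. Class I heavy chains are near-identical, and the probe sets read for H2-K1 and H2-D1 carry the suffix f of sequence families, so the signal of a single heavy chain gene is uncertain. Tap1, which with Tap2 carries peptides into the endoplasmic reticulum, read 283 in knockout skin against 187 in wildtype skin on the first type, a log2 ratio of 0.60. Its other first-type probe set read 16.7, below the floor, in knockout skin against 84.8 in wildtype skin, and on the second type it read 88.4 in knockout skin against 95.5 in wildtype skin, both below the floor. The Tap1 probe sets thus gave no common direction. Tapbp (tapasin), which bridges Tap1 and class I molecules, read 751 in knockout skin against 520.1 in wildtype skin, a log2 ratio of 0.53, while its other probe sets stood at 0.09 and 0.03. The 5 class I members above the floor had a median log2 ratio of 0.40 with 3 positive and 2 negative, and none passed 2-fold.

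The members on both array types could be read a second time, through other probes. None of the 6 was past 2-fold on both, where 2 of 2119 genes, 0.0944%, were. At this floor Adar, Eif2ak2, Rsad2 and Tap1 could not be, since their signals on at least 1 type were too low to pass. Of the 3 members above the floor on both types, Adar, Ifngr2 and Tyk2, none had log2 ratios of the same sign, where 56.4% of 1081 genes did. A linear model over all 4 arrays with array type as a block (limma, Benjamini-Hochberg adjustment over 1250 genes above the floor in at least 1 array of each type) called 0 genes, with 103 at an unadjusted p under 0.05. The 4 members in that fit had log2 ratios of opposite sign on the types, with an SE as large as the mean ratio or larger except for Eif2ak2. Eif2ak2 had a mean log2 ratio of -0.34 with an SE of 0.28 and a limma adjusted p = 0.747, and its ratio was negative on 1 of 2 types. Ifngr2 had a mean of 0.077 with an SE of 0.23 and a limma adjusted p = 0.938, and its ratio was positive on 1 of 2 types. Tyk2 and Adar had means of 0.0051 and -0.014. The residual behind these p-values is the difference between array types, with 1 degree of freedom. It was drawn toward a variance pooled over all genes in the fit, with 7.10 prior degrees of freedom. Whether it includes any difference between animals is not known from the labels, so the p-values cannot be read as a spread between animals.

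**Figure D5:**
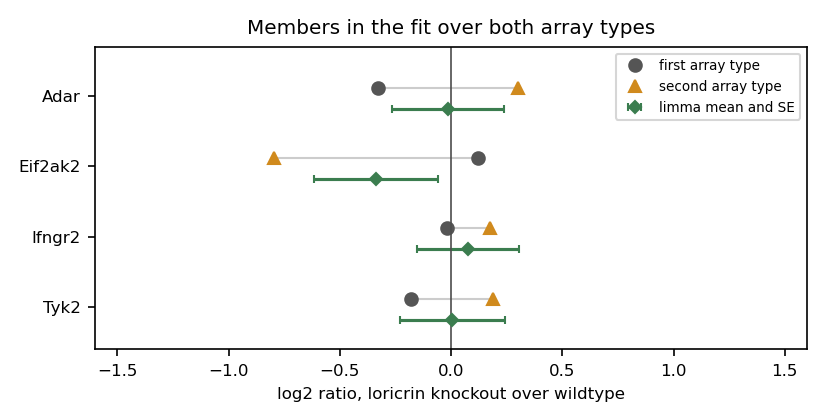
Log2 ratios of loricrin knockout over wildtype for the 4 members in the fit over both array types, with circles for the first type, triangles for the second, and diamonds with bars for the limma mean and its SE. In each gene the circle and the triangle lie on opposite sides of 0.

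Other genes of the pathway, from lists of their own, were counted in the same way. Here too a gene whose brighter signal lay under 2 times the floor could not pass. On the first type 0.836% of all genes were higher, 1.38% lower and 27.6% below the floor in both arrays. Of 36 further interferon signalling and response genes on the first type none was higher or lower by 2-fold, 13 lay below the floor in both genotypes, and the 21 above it had a median log2 ratio of -0.10. The 2 with the highest mean signal were Ifi30, a lysosomal thiol reductase, at 3358 in knockout skin against 3779 in wildtype skin, and Ifi27, at 1030.0 in knockout skin against 1107 in wildtype skin. On the second type 1.67% of all genes were higher, 2.12% lower and 25.7% below the floor in both arrays. Of the 17 listed genes there, 7 lay below the floor in both genotypes, none was higher and 1 was lower. This was Socs3, a feedback inhibitor of cytokine receptors, which read 75.5 in knockout skin against 289 in wildtype skin, at least 2.17-fold lower. On the first type Socs3 read 232 in knockout skin against 353 in wildtype skin, a log2 ratio of -0.60. Of the interferon genes themselves, named after their values were seen, Ifnb1 read 57.7 in knockout skin against 53.7 in wildtype skin, and Ifng 4.21 in knockout skin against 3.64 in wildtype skin, all below the floor. Ifna2 read 33.9 in knockout skin against 94.3 in wildtype skin, and Ifna4 69.7 in knockout skin against 95.6 in wildtype skin, the knockout signals below the floor and the wildtype signals above it.

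Of 17 further class I presentation genes on the first type none passed 2-fold. Below the floor in both genotypes, where no gene can pass, lay 5 of them. H2-M3, Cd1d1, Mr1 and Hfe, with brighter signals under 2 times the floor, could not pass either. The 12 above the floor had a median log2 ratio of 0.28. The 2 with the highest mean signal were Pdia3, a chaperone of the peptide-loading complex, at 1538 in knockout skin against 998 in wildtype skin, and the proteasome activator Psme1, at 1158 in knockout skin against 936 in wildtype skin. None of the 3 on the second type passed or could pass, with 2 below the floor in both genotypes and Erap1 under 2 times the floor. The 2 with the highest mean signal were Erap1, which trims peptides, at 177 in knockout skin against 37.2, below the floor, in wildtype skin, and Nlrc5, an activator of class I genes, at 98.1 in knockout skin against 53.2 in wildtype skin, both below the floor. Of 16 class II presentation genes on the first type none passed 2-fold, but only 7 had a mean log2 signal above the floor. In both genotypes 4 lay below it and could not pass, nor could others with a brighter signal under 2 times the floor. Ifi30, which is on this list too, and the protease Ctss, at 1934 in knockout skin against 2401 in wildtype skin, had the highest mean signals. Of 3 on the second type none passed or could pass, with Ifi30 at 188 in knockout skin against 239 in wildtype skin, under 2 times the floor. The other 2, among them the T-cell costimulator Cd86, lay below the floor in both genotypes.

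Markers of cell types were read on the first type to show what moved beside the members. None of the 5 leukocyte, 6 T cell, 10 macrophage, 5 Langerhans and dendritic cell and 6 mast cell markers measured was 2-fold different. A marker whose brighter signal lies under 2 times the floor cannot pass that rule. Below the floor in both arrays lay 4 T cell, 3 mast cell, 1 macrophage and 1 Langerhans and dendritic cell markers. Cd4, Cd5, Ptprc, Cd53, Fcgr3, Itgax, Xcr1 and Cma1 could not pass either, so no T cell marker could. Summed leukocyte signal was 1630 in knockout skin against 2014 in wildtype skin, macrophage signal 4651 in knockout skin against 4570 in wildtype skin, Langerhans and dendritic signal 1160.0 in knockout skin against 994 in wildtype skin, T cell signal 309 in knockout skin against 341 in wildtype skin, and mast cell signal 407 in knockout skin against 517 in wildtype skin. The T cell markers Cd3e, Cd3d, Cd3g and Cd8a were below the floor in both arrays. Fibroblast markers differed more, with 4 of 6 lower in knockout (Col1a1, Col3a1, Lum and Pdgfra) and a summed signal of 3869 in knockout skin against 6856 in wildtype skin. All 3 red cell markers above the floor, Hba-a1, Hbb-b2 and Alas2, were lower, with a summed signal of 5477 over the 4 measured in knockout and 21694 in wildtype. Keratinocyte markers summed to 61659 in knockout skin against 86695 in wildtype skin, with Trp63 the 1 of 7 past 2-fold, higher, and Krt5 and Krt14 below the floor. A signal below the floor is a reading of the probe set and does not show that the RNA was absent. Endothelial markers summed to 245 in knockout skin against 384 in wildtype skin, with none of 6 past 2-fold and 4 below the floor in both arrays. Kdr could not pass either. The part of these cell types in the values of the members was not tested.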

How the data were processed

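Total RNA of whole newborn skin was biotin-labelled and run on 4 Affymetrix arrays on 2 array types. The authors deposited array intensity values, 1 linear signal per probe set and array; per the submitters' processing notes the tool was MAS5. Its version, scaling target and detection calls are not stated in the labels. All 4 deposited columns had a trimmed mean (2% from each end) between 500.2 and 500.4, with no signal at or below 0. The columns matched the 4 samples by name, with 0 left over.

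Both arrays of each type were then rescaled to one trimmed mean, and the 66 control probe sets per type were dropped. Genes came from probe sets with 1 gene, 10833 and 10581 on the first and second types, with symbols updated through the gene identifier with the RefSeq gene table (10817 and 10550 matched). The floor was the mean of the 40th percentiles of the 2 arrays. Above the floor means a mean log2 signal above it, except for limma, which took genes above it in 1 array of each type. limma 3.58.1 in R 4.3.3 fitted genotype with array type as a block (lmFit and eBayes, Benjamini-Hochberg), with 1 residual and 7.10 prior degrees of freedom. The labels carry no replicate numbers. All measured members were named; of the pathway lists those past 2-fold, or the 2 brightest where there were none. Members and lists were chosen with earlier results of these data known. The steps were tested on simulated data. Alternatives covered scaling, floor, fold rule, value per gene and block. The number of arrays limits the precision.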

Additional observations from a re-analysis of the deposited data

How the results depend on the processing

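The first-type count of 0 members past 2-fold was 6 (all higher) under spike-in scaling and 5 (all lower) at a 20th-percentile floor. It was also 5 (all lower) with no floor and a pseudocount of 1, and 5 (2 higher, 3 lower) at a rule of 1.5-fold. The second-type count of 2 was 1 at a 60th-percentile floor, 1 with the median over probe sets and 1 without suffixed probe sets. At a rule of 3-fold it was 1, and at 1.5-fold 4 (2 higher, 2 lower). The share of all genes at the 1.5-fold and 3-fold rules is not given, so those counts cannot be set against it. The first-type median of -0.055 was 0.63 under spike-in scaling and 0.069 at a 60th-percentile floor, and the second-type median of 0.19 was 0.84 under spike-in scaling. The count of 0 members past 2-fold on both types was 0 under every alternative run. With either array type left out it is 0, a value with no test, because none of the 6 shared members passed 2-fold on either type. The limma count of 0 of 1250 genes was 10 of 1242 under loess and 552 of 1263 under spike-in scaling. It was 7 of 637 at a 60th-percentile floor and 1 of 938 without suffixed probe sets. Under spike-in scaling 1 of the 4 members was called, Ifngr2, beside 552 of all 1263 genes in that fit. Its mean log2 ratio was then 0.75 (SE 0.24, limma adjusted p = 0.0377). Under the trimmed-mean scaling its ratio was positive on 1 of 2 types. Over the alternatives the lowest limma adjusted p among the members ran from 0.0377 to 0.9995. Without array type as a block limma called 0 genes. With an array type left out limma has no residual degrees of freedom, so no count is given. Over single members above the floor in at least 1 array, 357 of 370 alternative values stayed on their side of 2-fold, 10 passed it and 3 no longer did, and no called value changed sign. Of the members below the floor, Irf1, Gbp2 and Rsad2 also passed it at a 20th-percentile floor and with no floor and a pseudocount of 1. Each type had 1 array per genotype, so signal close to background limits what could be seen for the 14 members below the floor. At the main floor Adar, Eif2ak2, Ifitm1, Isg15, Ifnar1 and Ifnar2 could not reach 2-fold on the first type either. Nor could Oasl2 and Tap1 on the second.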
